A study of Mus musculus with 36 samples.

Results

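The single-strand break (SSB) landscape of sperm was examined in the 2 SSB libraries of motile spermatozoa, chosen by their tissue label, among 12 SSB libraries. The other 10 came from bone marrow, brain, heart, liver and peripheral blood mononuclear cells (PBMCs), with 2 libraries per tissue. All DNA came from male C57BL/6J mice at 24 months of age, without any treatment named in the labels. Per the labels, the 6 tissues were taken from 2 animals, but no label says which animal gave which library. Libraries of different tissues can therefore share an animal, and p-values measure only the spread between these samples. Sperm were taken from the tail of the epididymis as cells that floated up in culture medium. The DNA extraction differed between tissues: TIANamp kit and RNase A for the 5 somatic ones, a dedicated Simgen kit for sperm. The DNA kit and the tissue therefore cannot be told apart in any comparison of sperm with the rest.

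An SSB is an interruption in 1 strand of the double helix, left by oxidation, by repair of damaged bases, by topoisomerases and by other processes. SSiNGLe, the method used by the study, records the nucleotide and the strand of each break. Mature sperm differ from the other tissues in their chromatin: most histones have been replaced by protamines, transcription has stopped, and the cells are haploid. In somatic cells, nucleosome-poor DNA lies at active gene starts. Sperm carry either an X or a Y chromosome, so a pool of sperm holds the X in the same proportion to the autosomes as a diploid male cell does. The question addressed here was how SSBs of sperm are spread over genes, gene ends, gene-poor DNA and chromosomes, compared with the other tissues.

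The sperm libraries held 374964 and 278646 SSB positions. The other libraries held 225011 to 1041983 positions, with a median of 446198. No library listed a position in mitochondrial DNA. The 2 sperm libraries shared 267 nucleotides on the same strand, 0.0972% of the smaller one. Scaled to the depth of both libraries, this overlap lay within the range of the pairs of the other tissues. The labelled tissue could not be checked against expressed markers, because the assay reads DNA. Bone marrow stood apart from the other somatic tissues in most measures below, on the side away from sperm. Values without it are therefore given beside most of the results.

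The promoter windows with most sperm SSBs are shown first, because they let the breaks be seen in their sequence. Windows of 250 bases before to 50 bases after an annotated start were taken for 25748 genes. With each distinct window counted once, 26775 had no SSB position in either sperm library, 4025 had 1 and 494 had 2. A single window reached 8 and 7 tied at 4, of which Sp110 and Fasl came first in the order of chromosomes. The 250 bases upstream of the 3 starts are printed from RefSeq sequence of GRCm38.p6, in the direction of the gene. Capitals mark nucleotides at which a sperm library listed an SSB on either strand.

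Gm33862, chr11:3136826-3137075, plus strand: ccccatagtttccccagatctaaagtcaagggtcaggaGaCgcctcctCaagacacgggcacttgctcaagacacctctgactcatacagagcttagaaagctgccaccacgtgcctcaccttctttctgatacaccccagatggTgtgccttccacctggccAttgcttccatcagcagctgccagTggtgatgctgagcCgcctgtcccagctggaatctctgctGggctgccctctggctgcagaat
Sp110, chr1:85598811-85599060, minus strand: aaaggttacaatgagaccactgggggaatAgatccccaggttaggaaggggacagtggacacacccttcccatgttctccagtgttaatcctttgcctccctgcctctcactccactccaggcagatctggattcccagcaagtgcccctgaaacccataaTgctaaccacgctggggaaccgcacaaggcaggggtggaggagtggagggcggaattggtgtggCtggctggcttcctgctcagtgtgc
Fasl, chr1:161788496-161788745, minus strand: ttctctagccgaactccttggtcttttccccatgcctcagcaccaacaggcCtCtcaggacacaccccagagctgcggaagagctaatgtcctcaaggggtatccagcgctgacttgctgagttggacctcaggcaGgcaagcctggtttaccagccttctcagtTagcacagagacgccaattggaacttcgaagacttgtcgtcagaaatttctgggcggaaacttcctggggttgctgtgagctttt

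In the window of Gm33862, a predicted gene model, 7 positions came from sperm replicate 1 and 1 from replicate 2. The other libraries had 0 to 8 there, and the rates were 12.4 positions per 1000000 autosomal positions in sperm and 10.1 in the others. The counts per library are not scaled to depth. The window of Sp110, a nuclear body protein of immune cells, had 4 positions in sperm replicate 1, none in replicate 2 and 0 to 3 in each of the others, and 3 of the 4 lie in the printed bases. At Fasl, the ligand of the death receptor Fas, both sperm libraries had 2 positions, and the others had 0 to 2. The 3 windows were chosen for their sperm counts, so no test was made.

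Within genes, SSBs of sperm were shifted toward very long genes and away from short ones. Genes of 500 kb or longer, 225 in number, cover 8.04% of the autosomal sequence. They held 8.33% and 8.29% of the autosomal SSB positions of the 2 sperm libraries. In the other 10 libraries the share ran from 6.55% to 7.63%, with a median of 7.48%, so that sperm lay above every other library and above the share of sequence covered, which none of the others reached. The tissue means were 6.71% ± 0.224 (SD, n = 2) in bone marrow, 7.49% ± 0.0631 in brain, 7.51% ± 0.0880 in liver, 7.53% ± 0.147 in PBMCs, 7.54% ± 0.0349 in heart and 8.31% ± 0.0282 in sperm. The means of brain, liver, PBMCs and heart lay within their spread of each other, while sperm and bone marrow lay outside it on opposite sides. The difference of sperm from the mean of the other libraries was 0.955 percentage points (two-sided exact permutation test over the 66 choices of 2 libraries among 12, p = 0.0303, smallest possible p = 0.0152). This test and those below permute single libraries and treat the 2 of a tissue as independent. Any tissue whose 2 libraries stand apart can reach a small p, so these p-values do not count tissues as replicates. Without bone marrow it was 0.792 percentage points (exact permutation test over 45 choices, p = 0.0222, the smallest these can give). With permutation only among libraries of the same replicate number the same difference had an exact permutation p of 0.0556.

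The direction turned with gene length. Genes of 1 Mb and longer (60 genes) held 3.25% of positions in each sperm library, against 2.37% to 2.88% in the others with a median of 2.82%. Genes of 500 kb to 1 Mb held 5.08% and 5.04% in sperm, against 4.18% to 4.77%, median 4.66%. Both classes were higher in sperm than in every other library, with ratios of 1.18 and 1.10 to the mean of the others (adjusted p = 0.0455 for each, exact permutation tests, 6 classes). The class of 100 to 500 kb overlapped, with 22.8% and 22.5% in sperm and 22.4% to 23.2% in the others (adjusted p = 0.545, exact permutation test). Genes of 50 to 100 kb held 10.6% in both sperm libraries, against 10.99% to 11.74%, median 11.2%. Genes of 10 to 50 kb held 16.6% and 16.7%, against 17.4% to 20.05%, median 17.8%. These classes lay below every other library (adjusted p = 0.0455 for each, exact permutation tests). Genes under 10 kb held 5.07% and 5.06%, against 5.10% to 6.44%, again below all 10, but the adjusted p was 0.0545 (exact permutation test). Of the 6 classes, 5 had an unadjusted p under 0.05, and 2 had one with permutation only among libraries of the same replicate number. Without bone marrow the same 5 classes had a p of 0.0222 each (exact permutation tests).

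**Figure D1:**
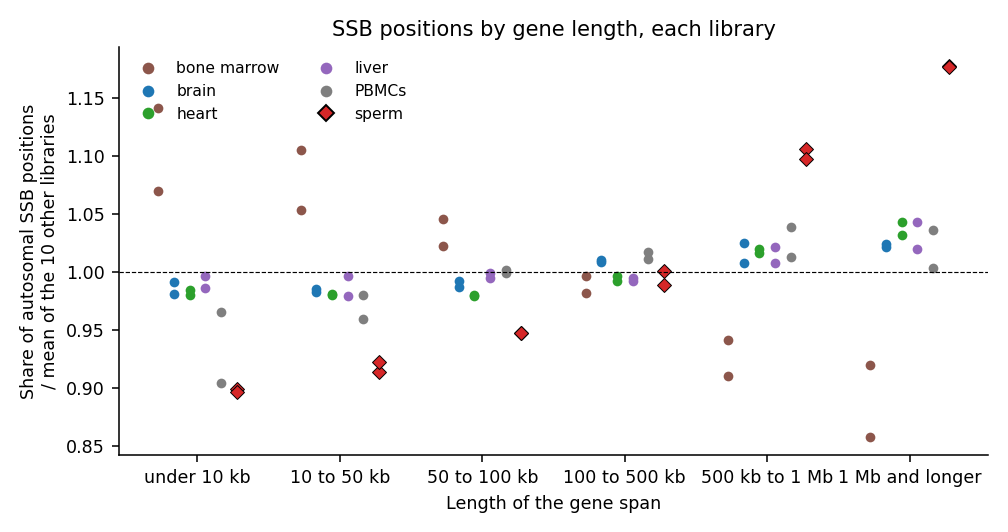
Share of autosomal SSB positions within genes of 6 length classes, divided by the mean of the 10 libraries of other tissues (vertical axis, ratio; the dashed line is 1). Each point is 1 library; the sperm libraries lie lowest of all in the 3 shorter classes, among the others at 100 to 500 kb and highest in the 2 longer classes, where the mean ratios were 1.10 and 1.18.

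All gene spans together held a smaller share in sperm, 60.15% and 60.05%, than in the other libraries, with 61.2% to 63.7% and a median of 61.6%. The difference of -1.71 percentage points (exact permutation test, p = 0.0303) was -1.35 without bone marrow (exact permutation test, p = 0.0222). Gene spans cover 49.6% of the autosomal sequence, so SSBs were denser within than outside genes in sperm too. Along genes of 50 kb or longer, the first 10% of the span held 10.5% and 10.7% of the positions in sperm and 10.5% to 11.9% in the others. The last 10% held 12.04% and 11.6%, against 11.7% to 12.4%. At each end 1 sperm library lay below all others and the other within their range. In the interior, both sperm libraries were above all others from 30% to 40% (9.50% and 9.58%, against at most 9.47%) and from 50% to 60% of the span (9.70% and 9.72%, against at most 9.56%). No test was made of these shares.

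Of single genes, 37166 were tested for their density, written as LPKM (SSB positions per kb of gene and per 1000000 autosomal positions). With edgeR's quasi-likelihood test and Benjamini-Hochberg adjustment, 6 genes were higher in sperm than in the mean of the other 5 tissues (0.0161% of those tested) and 0 were lower (0%). At an unadjusted p under 0.05, 1044 genes were higher (2.81%) and 1022 lower (2.75%). DESeq2 called 13 genes higher and 0 lower. With limma 4 were higher and 0 lower, and none of these 4 was among the 6. The 6 genes were all of 500 kb or longer. Without bone marrow 3 of them were called and no other gene. A fit of 2 groups, in which the spread among the other tissues enters, called fewer than 6.

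Lsamp, an IgLON adhesion protein of neurons (chr16:39984254-42181679), had 399 and 304 SSB positions in sperm. Its LPKM was 0.491 and 0.504 in sperm and 0.294 to 0.421, with a median of 0.349, in the others. The groups did not overlap, and the log2 difference was 0.49 with a standard error of 0.072 (adjusted p = 3.5e-07). Its call was kept when either sperm library or any single other library was left out, and was lost with limma and against brain alone (adjusted p = 0.0688) or heart alone (0.103).

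Macrod2, a hydrolase of ADP-ribose marks (chr2:140395303-142392966), had 0.494 and 0.472 LPKM in sperm and 0.279 to 0.398, median 0.364, in the others. The log2 difference was 0.45 (adjusted p = 4.82e-05) and lost its call without sperm replicate 1 (adjusted p = 0.511), with limma (0.768), in a fit of 2 groups (0.342) and against brain (0.630) or liver (0.543) alone. Dcc, the netrin receptor of growing axons (chr18:71253613-72351228), had 0.461 and 0.441 against 0.278 to 0.389, median 0.312, a log2 difference of 0.50 (adjusted p = 0.00466). Both sperm libraries were above all others for either gene. For Dcc the call was lost without sperm replicate 1 (adjusted p = 0.96), sperm replicate 2 (0.186) or bone marrow replicate 1 (0.0613). It was also lost with limma (0.752), at equal depth (0.799), in a fit of 2 groups (0.342) and against heart (0.944), liver (0.0846) or PBMCs (0.890) alone.

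Lrp1b, a giant receptor of the LDL receptor family (chr2:40595290-42653598), had 0.289 and 0.267 LPKM in sperm and 0.142 to 0.25, median 0.208, in the others (log2 difference 0.45, adjusted p = 0.014). Ptprd, a receptor tyrosine phosphatase of synapses (chr4:75941237-78211742), had 0.337 and 0.369 against 0.193 to 0.304, median 0.291 (log2 difference 0.36, adjusted p = 0.0405). Sorcs1, a sorting receptor of the VPS10 family (chr19:50143295-50679129), had 0.581 and 0.551 against 0.324 to 0.491, median 0.374 (log2 difference 0.56, adjusted p = 0.0405). The groups did not overlap for any of the 3, but without bone marrow their adjusted p was 0.352, 0.766 and 0.143 by edgeR's test. None of the 3 was called at equal depth, with limma, in a fit of 2 groups or against brain, heart or PBMCs alone (adjusted p = 0.178 to 0.985). Each of the 3 lost its call without either sperm library (adjusted p = 0.186 to 0.9998), bone marrow replicate 1 (0.139 to 0.173) or liver replicate 2 (0.1097 to 0.122). The call of Sorcs1 was also lost without brain replicate 2, heart replicate 1 or PBMC replicate 2, and that of Ptprd without brain replicate 1, either heart library or PBMC replicate 2 (adjusted p = 0.0545 to 0.130). Lsamp, Macrod2, Lrp1b, Ptprd and the uncalled Ctnna2 were singled out from earlier results of these data, so their direction is no independent evidence. Ctnna2, an alpha-catenin of neurons, had 0.434 and 0.517 LPKM against 0.267 to 0.425 (log2 difference 0.37, adjusted p = 0.218).

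The 3 genes of smallest p in the other direction did not pass the test. Plch2, a phospholipase C, had 0.668 and 0.495 LPKM in sperm and 0.959 to 1.45, median 1.29, in the others (log2 difference -1.04, adjusted p = 0.0899). In a fit of protein-coding genes alone, which called 8 genes higher and 1 lower, Plch2 was the lower one (adjusted p = 0.0454). Apbb2, an adaptor that binds amyloid precursor protein, had 0.515 and 0.375 against 0.566 to 0.766, median 0.717 (log2 difference -0.60, adjusted p = 0.193). Ccdc151, which serves the assembly of dynein arms of cilia and flagella, had no position in either sperm library, against 1 to 13 positions per library in the others. At a floor of 3 positions over both sperm libraries, its LPKM was at least 3.15-fold lower than the mean of the others (adjusted p = 0.159). The sperm libraries lay below all others for these genes, which was so for 800 of the genes tested (2.15%).

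**Figure D2:**
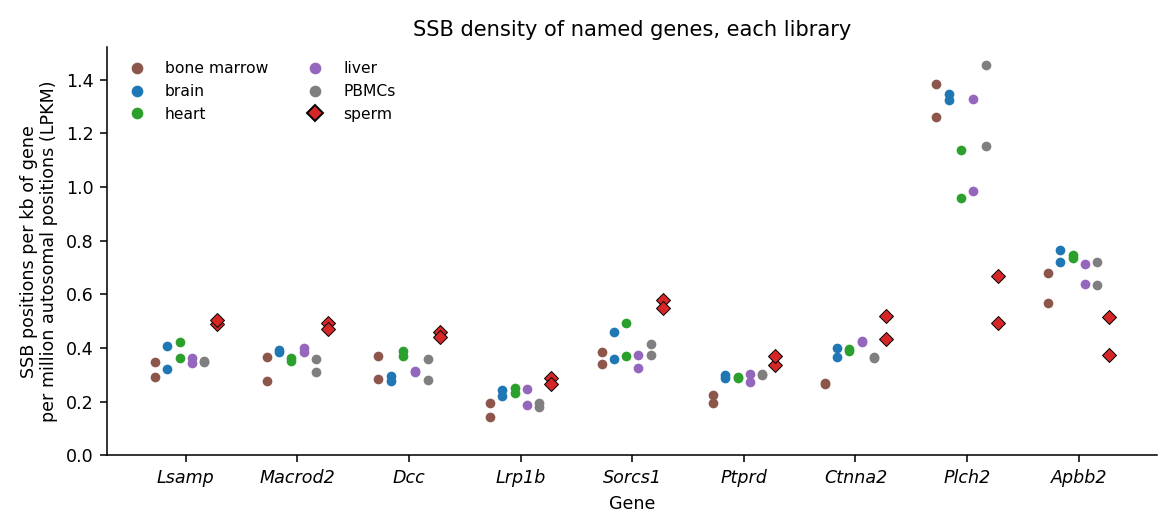
SSB density of 9 named genes in each of the 12 libraries (vertical axis, LPKM, SSB positions per kb of gene per 1000000 autosomal positions). Each point is 1 library; the sperm libraries lie above all others for the first 7 genes, of which Ctnna2 did not pass the test, and below all others for Plch2 and Apbb2, which did not pass it either.

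The called genes were the upper end of a wider shift among long genes. Of the 60 genes of 1 Mb and longer, 57 had a higher fitted density in sperm, and for 28 of them (46.7%) both sperm libraries were above all 10 others, against 1.92% of all genes tested. The 3 exceptions, named after their values were seen, were Cdh13, Gpc6 and Gpc5, with log2 differences of -0.04, -0.03 and -0.003. Of the 165 genes of 500 kb to 1 Mb, 135 were higher and 35 (21.2%) lay above all others. Median log2 differences were 0.24 and 0.16 in the 2 classes, and -0.05 over all genes tested. The sign of that last median is not firm: it was 0.07 with the 5307 genes that had no sperm position set to their bound. Among the 2383 genes of 100 to 500 kb the median was near 0 (-0.0005), with 90 genes (3.78%) above and 75 (3.15%) below all others. A gene of 1 Mb and longer had a median of 205 positions per library and one of 100 to 500 kb 36.9, so groups separate more readily in longer genes at the same fold. A single gene of 500 kb or longer lay below all others, Vps13b, a lipid transfer protein named after its values were seen (log2 difference -0.25, adjusted p = 0.952).

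At gene starts sperm lay at the low end of the 12 libraries. Within 1 kb of the starts of protein-coding genes, SSB density was 1.87 and 1.86 times the autosomal mean in sperm, and 1.93 to 3.49 times, median 2.499, in the others. Both sperm libraries were the lowest of the 12, next to PBMC replicate 2 with 1.93. The difference of -0.663 did not pass the test (exact permutation test, p = 0.0909), and bone marrow was the highest tissue. Without bone marrow the difference was -0.483 (exact permutation test, p = 0.0222). In the 200 bases before the start, density was 2.07 in both sperm libraries and 2.07 to 5.91, median 3.46, in the others. In the 200 bases after it, density was 2.27 in both and 2.25 to 5.58, median 3.34. A peak at starts was thus present in sperm, with a height at the lower end of the range of the others. The gene starts were those whose direction RefSeq's promoter table gives, 16457 of 20665 protein-coding autosomal genes.

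At 3′ ends the same window of 1 kb had 1.55 and 1.53 times the autosomal mean in sperm, and 1.61 to 1.89 times, median 1.66, in the others. Sperm was below all 10 (difference -0.156, exact permutation test, p = 0.0303), with a difference of -0.114 without bone marrow (exact permutation test, p = 0.0222). This depended on the reference: relative to sequence 50 to 100 kb away from the same ends the densities were 1.40 in sperm and 1.39 in the others (exact permutation test, p = 0.758). At starts, the same reference left 1.68 in sperm and 2.08 in the others (exact permutation test, p = 0.167).

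**Figure D3:**
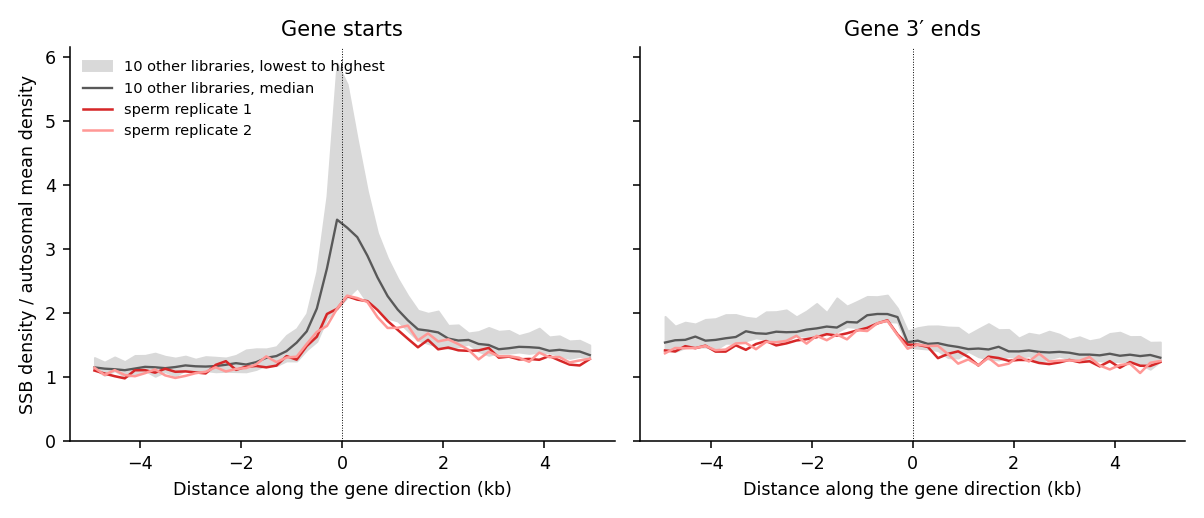
SSB density in bins of 200 bp within 5 kb of the starts (left) and 3′ ends (right) of protein-coding genes, divided by the autosomal mean density (vertical axis). The horizontal axis is distance in kb in the direction of the gene; the red lines are the 2 sperm libraries, the grey line is the median and the band the range of the 10 other libraries. The sperm lines reach 2.27 after the start, where the median of the others is 3.34, and follow the lower edge of the band around 3′ ends.

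Within 12198 protein-coding genes that overlap no gene of the other direction, the strand opposite to the gene held 44.5% and 43.4% of SSB positions in sperm and 43.6% to 47.2%, median 45.7%, in the others. The ranges overlapped (exact permutation test, p = 0.0758). In all 12 libraries fewer positions were listed on the opposite strand than on the strand of the gene. Whether the listed strand is that of the broken nucleotide or of the read is not given in the sources used here.

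Gene density in 100 kb windows separated sperm in the same way. It is not independent of the gene spans, because starts are ends of the same spans. Windows with 0 starts also include 1695 inside a gene of 500 kb or longer. Only starts of known direction were counted, those of 16457 of 20665 protein-coding autosomal genes. Some windows can therefore hold further starts and stand in too low a class. Windows with 0 counted starts make up 64.0% of the autosomal windows with a position. They held 59.9% and 59.7% of sperm SSBs, against 52.7% to 57.9%, median 57.2%, in the others. Windows with 4 or more starts held 4.97% and 5.04% in sperm, against 5.28% to 7.11%, median 5.74%. Sperm was outside the range of the others in all 4 classes, with 21.2% in windows with 1 start (others 21.8% to 22.7%) and 14.0% and 14.1% in those with 2 to 3 (others 14.8% to 17.5%). The adjusted p was 0.0404 for the first 3 classes and 0.0455 for 4 or more starts (exact permutation tests, 4 classes), and each kept its direction without bone marrow (p = 0.0222 each, exact permutation tests). With permutation only among libraries of the same replicate number, 1 of the 4 classes had a p under 0.05. With positions within 5 kb of gene starts left out, an alternative added after seeing the data, the classes with 0 and with 4 or more starts still differed by 2.59 and -0.436 percentage points (p = 0.0303 each, exact permutation tests).

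Windows without a counted start were of different kinds. In 3598 windows with no gene, SSB density was 0.652 and 0.653 times the autosomal mean in sperm, against 0.478 to 0.593, median 0.576. In 1695 windows inside a gene of 500 kb or longer it was 1.02 and 1.01, against 0.790 to 0.935, median 0.910. Sperm was higher than every other library in both kinds, by ratios of 1.16 and 1.14 to the mean of the others (adjusted p = 0.0455 each, exact permutation tests, 3 kinds). The differences of means, 0.0878 and 0.122, were 0.0720 and 0.101 without bone marrow (p = 0.0222 each, exact permutation tests). With permutation only among libraries of the same replicate number the p of both was 0.0556. In 2781 windows inside shorter genes it was 1.209 and 1.1995, against 1.17 to 1.22, and the groups overlapped (adjusted p = 0.758, exact permutation test). Sperm SSBs were thus denser in gene-free DNA and in the interior of very long genes and not detectably different inside shorter ones, where the difference of means was 0.00482 (-0.000548 without bone marrow).

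**Figure D4:**
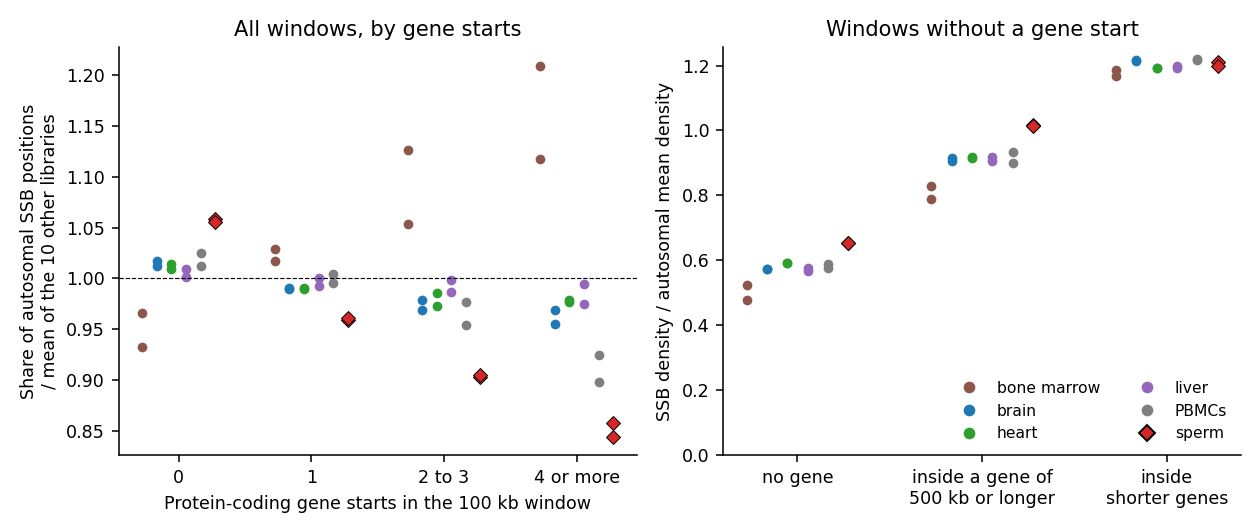
Left, share of autosomal SSB positions in 100 kb windows by their number of protein-coding gene starts of known direction, divided by the mean of the 10 other libraries. Right, SSB density of windows without such a start, divided by the autosomal mean density. Each point is 1 library; sperm lies above all others in windows with 0 starts, below all in the other 3 classes, and above all in gene-free windows (0.652 and 0.653) and inside genes of 500 kb or longer (1.02 and 1.01).

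Of 23971 single windows, 5 were higher (0.0209%) and 3 lower (0.0125%) in sperm by edgeR's test. As for genes, its p-values rest on the spread within tissues and not on that among them. At an unadjusted p under 0.05, 1466 windows were higher (6.12%) and 1008 lower (4.21%), and 54.8% of all windows were higher in sperm at any size. DESeq2 called 0 in either direction, with 598 windows at an unadjusted p under 0.05, and limma called 18 higher and 6 lower. Both sperm libraries lay above all others in 877 windows (3.66%) and below all others in 674 (2.81%). In windows with 0 starts these shares were 4.66% and 1.81%, and in windows with 4 or more starts 1.29% and 8.92%.

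The 5 higher windows held no counted gene start. A window of chromosome 4 with no annotated gene (chr4:68600001-68700000) had 24 and 16 sperm positions, or 0.649 and 0.583 LPKM, against 0.136 to 0.3, median 0.194, in the others (log2 difference 1.63 with a standard error of 0.31, adjusted p = 0.00139). In a window that overlaps Epha4, an ephrin receptor (chr1:77300001-77400000), density was 1.19 and 0.911, against 0.343 to 0.725, median 0.533 (log2 difference 1.04, adjusted p = 0.01). Inside Lsamp (chr16:40500001-40600000) it was 0.757 and 0.947, against 0.266 to 0.561, median 0.384 (log2 difference 1.09, adjusted p = 0.0398). None of the 3 overlapped with the other libraries. A further window overlaps Slc8a1, a sodium-calcium exchanger (chr17:81600001-81700000, log2 difference 0.97), and the last lies in gene-free DNA (chr16:54000001-54100000, log2 difference 2.20). Each had an adjusted p of 0.0398 by edgeR's test, and its groups did not overlap.

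Of the 3 lower windows, one spans 14 genes, among them Kmt2b, a histone methyltransferase (chr7:30500001-30600000). It had 0.595 and 0.51 LPKM in sperm and 0.823 to 1.42, median 1.14, in the others (log2 difference -1.005, adjusted p = 0.0398). Another overlaps Cdk19, a kinase of the mediator complex, and Gm32234 (chr10:40400001-40500000). It had 10 and 3 sperm positions, or 0.27 and 0.109 LPKM, against 0.399 to 0.846 (log2 difference -1.53, adjusted p = 0.0398 by edgeR's test). The sperm libraries lay below all others in both. The third holds AY036118 and Rn18s-rs5, sequences akin to ribosomal RNA whose reads can come from many copies (chr17:39800001-39900000). Its groups overlapped, with 4.63 and 5.14 LPKM in sperm and 3.93 to 11.95, median 7.37, in the others (log2 difference -0.56, adjusted p = 3.71e-05). The difference from PBMCs alone had the other sign (0.15). Without sperm replicate 1, 0 windows were called by edgeR, with 1782 at an unadjusted p under 0.05, and without sperm replicate 2, 4 windows. Of the named windows, those of Lsamp, Slc8a1, Cdk19, Kmt2b and gene-free chromosome 16 lost their calls in 7 to 9 of the 12 fits without 1 library, and the other 3 in 1 or 2. Without liver replicate 1 there were 3, without either heart library 5, and without bone marrow 3.

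Sperm SSBs were also spread more evenly over windows. With every library thinned to 220728 autosomal positions, the variance of counts per 100 kb window was 3.18 and 3.13 times the mean in sperm, and 3.596 to 5.48 times, median 3.87, in the others (exact permutation test, p = 0.0455). Sperm was the lowest tissue in this measure, which was not compared without bone marrow. At the scale of a few bases the order was different. Per 1000 positions, sperm had 10.4 and 10.5 pairs of positions on the same strand within 10 bp of each other, against 3.12 to 10.8, median 3.93, and the highest value was that of PBMC replicate 1. The share of positions with a count above 1 was also high in sperm, 0.827% and 0.619%, against 0.140% to 1.23%, median 0.308%. Its part in the close pairs was not tested. Pairs on opposite strands within 10 bp numbered 1.01 and 0.951 per 1000 in sperm and 0.951 to 1.67 in the others, with ranges that touch.

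The X chromosome held fewer SSBs in sperm. Its share of all positions was 1.32% and 1.38% in sperm and 1.57% to 1.83%, median 1.78%, in the others, so both sperm libraries lay below all 10. The ratio to the mean of the others was 0.766 (exact permutation test, p = 0.0152, the smallest possible; adjusted p = 0.0795 over 21 chromosomes). In 18 of 18 bins of 10 Mb along the X, the sperm mean was below that of the others, by ratios of 0.674 to 0.904, and in 13 bins both sperm libraries were below all 10. The bins divide the same X share. Bins of the autosomes were not compared, so these counts are no further evidence. The Y chromosome overlapped, with 0.0845% and 0.0937% against 0.0831% to 0.170% (adjusted p = 0.318, exact permutation test). Without bone marrow the Y difference was -0.0390 percentage points (unadjusted p = 0.0444, exact permutation test). Among autosomes, 4 and 5 were lower and 18 higher in sperm than in every other library by at most 0.25 percentage points (adjusted p = 0.0795 each, exact permutation tests). Chromosomes 17, lower, and 9, higher, had an adjusted p of 0.106 each (exact permutation tests). None of the 21 chromosomes passed after adjustment, although 4 reached the smallest p the design can give. Without bone marrow the X difference was -0.443 percentage points (exact permutation test, p = 0.0222).

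**Figure D5:**
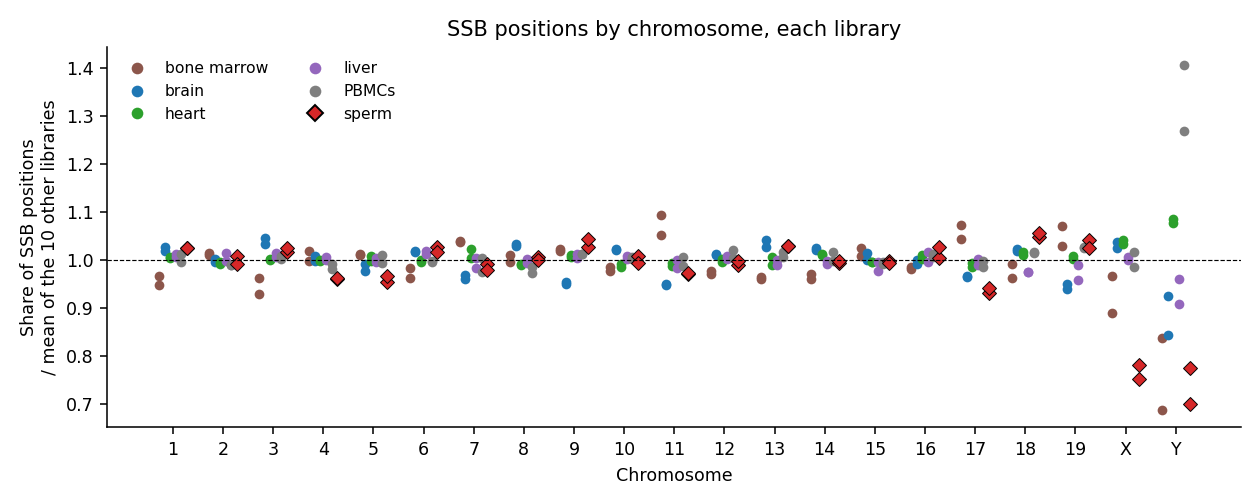
Share of SSB positions on each chromosome, divided by the mean of the 10 other libraries (vertical axis, ratio; the dashed line is 1). Each point is 1 library; the sperm libraries depart most from 1 on the X, with a mean ratio of 0.766 and no overlap, and on the Y, with 0.737, where bone marrow and sperm overlap.

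Gene lists by tissue of expression were compared by their share of SSBs and by density at the starts of their members. None of 13 lists passed the adjusted test by share, and none of the 12 with known starts by start density. The Neuron list (18 genes) held 0.370% and 0.362% of positions in sperm, above the 0.296% to 0.353% of the others (adjusted p = 0.197, exact permutation test). Of its members, 13 of 18 had a higher fitted density, with a median log2 difference of 0.19 against -0.05 over all genes, and 4 are of 500 kb or longer. Rbfox1, a splicing regulator of neurons, had most positions, with 0.558 and 0.532 LPKM in sperm against 0.402 to 0.511 (log2 difference 0.23, adjusted p = 0.603). At the starts of the 11 members with known direction, density was 3.83 and 4.37 in sperm, from 13 and 11 positions, against 0.922 to 3.76, median 1.96 (adjusted p = 0.182, exact permutation test). These were the highest 2 of the 12 libraries, in contrast to starts as a whole.

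Starts of ribosomal protein genes had a density of 2.01 and 1.46 in sperm, from 26 and 14 positions. In the others it was 2.00 to 6.07, median 3.64 (adjusted p = 0.182, exact permutation test). Starts of zinc finger genes named Zfp had 1.65 and 1.67, against 1.75 to 3.50, median 2.56 (adjusted p = 0.182, exact permutation test). Sperm was at the low end for both lists and below all others for the second. Olfactory receptor starts, of genes best known from the nose, had 1.37 and 1.40 in sperm, against 1.26 to 1.56, and vomeronasal receptor starts 0.790 and 0.710, against 0.565 to 1.01. These overlapped with the others (adjusted p = 0.727 and 1, exact permutation tests). Start densities of further lists went both ways and rest on 3 to 35 positions per sperm library. The difference of sperm from the mean of the others was 0.379 for Hox genes and 0.619 for developmental transcription factors. It was -0.282 for cardiac muscle, -0.587 for hepatocyte, -0.914 for blood and immune and -1.04 for replication-dependent histone genes.

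Genes of spermatogenesis and sperm held 0.0517% and 0.0550% of positions in sperm and 0.0542% to 0.0686% in the others, with a start density of 1.93 and 1.83 against 1.44 to 3.07. Of the 32 tested, 12 had a higher fitted density, with a median log2 difference of -0.21, and 0 were called. Spata16, a protein of the forming acrosome, had most positions in this list, with 0.219 and 0.327 LPKM in sperm against 0.282 to 0.339 (adjusted p = 0.953). Neither measure passed the test (adjusted p = 0.197 and 0.909, exact permutation tests).

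Among 17 blood and immune genes tested, 4 were higher in sperm, with a median log2 difference of -0.31. Their share was 0.0349% and 0.0361%, against 0.0363% to 0.0554% in the others, and Runx1, a regulator of blood stem cells, had 0.771 and 0.697 LPKM against 0.661 to 0.987. The share of the list was lowest in sperm, yet did not pass the test (adjusted p = 0.197, exact permutation test). Cardiac muscle genes (9 of 18 higher, median 0.01) and hepatocyte genes (10 of 20 higher, median -0.003) were balanced. Cacna1c, the calcium channel of heart muscle, had 0.709 and 0.615 LPKM against 0.644 to 0.825, and Cps1, the entry enzyme of the urea cycle, 0.497 and 0.569 against 0.285 to 0.777. Zfp genes (156 of 359 higher, median -0.10; Zfp536 log2 difference 0.19) and clustered protocadherins (23 of 58 higher, median -0.06; Pcdhga1 0.01) were close to all genes, of which 47.4% were higher.

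Medians of the log2 difference are not given for the remaining lists, whose genes had a median of 0.5 to 3.58 positions per library. The hepatocyte, blood and immune and Zfp lists above, with 2.88, 3.17 and 3.42, were sparse too, so their medians rest on few positions. In Hox genes 18 of 39 and in developmental transcription factors 18 of 37 were higher, and Hoxa3 and Pax7 had log2 differences of -0.49 and -0.31 (adjusted p = 0.936 and 0.953). In ribosomal protein genes 23 of 58 were higher and Rpl22 had a log2 difference of -0.49. In replication-dependent histone genes it was 17 of 46, with 26 without a sperm position, and H2bc6 was at 0.10. Among olfactory receptor genes 442 of 865 and among vomeronasal receptor genes 110 of 206 were higher, with Olfr1393 at -0.41 and Vmn2r1 at 0.13. No member of any list was called in either direction, where 0.0161% of all genes were called higher and 0% lower, so a count of 0 says nothing about the lists.

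The bases next to SSB positions were read in the promoter windows above, which held 2545 and 1886 sperm positions. Counted in the direction of the listed strand, C stood 1 base before the position in 53.0% and 52.3% of cases in sperm and 46.4% to 57.8% in the others, where C makes up 27.0% of the windows. A stood there in 4.20% and 4.83%, against 23.0% of the windows. The other tissues showed the same order, with 3.702% to 5.91% for A. T was more frequent around the position in sperm. At the position itself T had 23.7% and 27.4%, against 17.2% to 26.8%, median 19.6%, and 1 base after it 20.6% and 23.5%, against 12.1% to 18.5%, median 15.1%. The pair TT at these places had 4.72% and 5.94%, against 1.75% to 3.66%, so that both sperm libraries lay above all others. The pair of C and then G before and at the position had 10.8% and 9.81%, against 9.24% to 18.7%, median 15.4%. These shares cover positions within promoter windows alone and are given without a test.

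Abasic (AP) sites of the same samples, bases lost from an intact backbone and mapped with SSiNGLe-AP, did not separate sperm. In the AP libraries, genes of 500 kb or longer held 7.65% and 8.35% in sperm and 7.31% to 8.43% in the others. Windows with 0 starts held 57.7% and 59.98%, against 56.4% to 60.6%, and start density was 1.94 and 1.66, against 1.55 to 2.02. The X held 1.58% and 1.74%, against 1.58% to 1.83%. Sperm overlapped the other tissues in each of these. The labels give the AP and SSB libraries of a number as the same sample. The SSB value minus the AP value was compared per sample, in a test added after seeing the data (7 measures, exact permutation tests). It differed between sperm and the other tissues for long genes (0.801 percentage points, adjusted p = 0.0265), all gene spans (-1.66, adjusted p = 0.0265), windows with 0 starts (2.76, adjusted p = 0.0265), the X (-0.410, adjusted p = 0.0265) and the Y (-0.0235, adjusted p = 0.0424). For gene starts (-0.657) and 3′ ends (-0.155) it did not pass (adjusted p = 0.0909 and 0.0707).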

How the data were processed

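For each library the authors deposited a list of SSB or AP positions with strand and a count per position. Counts are whole numbers and were not normalized. The submitters' processing notes name the builds mm10 and GRCm38, and the aligner is not given in the sources used here. Each line was taken as 1 position, whatever its count. Whether reads repeated at a position came from separate molecules was not tested.

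Positions were assigned to 47042 autosomal RefSeq genes of GRCm38, to gene ends and to 100 kb windows. Shares and densities were compared between the 2 sperm and 10 other libraries by two-sided exact permutation over 66 choices, with Benjamini-Hochberg adjustment within a family. Single libraries were permuted, with the 2 of a tissue treated as independent. Positions per gene (37166) and window (23971), nonzero in at least 20% of the libraries, were tested with edgeR 4.0.16 in R 4.3.3 (quasi-likelihood, 1 coefficient per tissue, sperm against the mean of the other 5). DESeq2 1.42.0 and limma 3.58.1, on log2(LPKM + 1), were alternatives, as was a fit of protein-coding genes alone. Shares were computed with Python 3.11.15, numpy 2.4.6 and pandas 2.3.3, and plots were drawn with matplotlib 3.10.9.

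On data simulated for the gene comparison, 84% of genes changed 2-fold and 32% of those changed 1.5-fold were called (genes averaging 20 or more positions). For windows averaging 10 or more positions it was 48% and 6%. Of changes to 0.5 of the level, 44% were called for genes and 16% for windows. The simulation gave every feature the same spread and no difference among the other tissues.

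The text names the 10 genes of smallest p in each direction among those called with groups that did not overlap, or 3 uncalled genes where a direction had fewer than 3. It also names 5 windows per direction by the same rule, 5 genes from earlier results and the member of each list with most positions. The members, gene lists and tests were chosen with earlier results of these data known. Fewer than 3 windows were lower with no overlap, so the window of smallest p in that direction, with overlap, was added.

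Over single windows, same-numbered libraries did not deviate together from their tissue means (15 pairs, correlations of -0.0186 to 0.0100 over 23071 windows). Such windows hold few positions per library, so counting noise can hide a shared deviation, and the shares were not examined in this way. The labels do not tie a number to an animal. RNA libraries were not used here.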

Additional observations from a re-analysis of the deposited data

How the results depend on the processing

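Genes called numbered 6. There were 13 with DESeq2, 2 at equal depth, 1 in a fit of 2 groups and 3 without bone marrow. Against single tissues there were 64 for bone marrow, 1 for brain, 1 for heart, 2 for liver and 2 for PBMCs, and 1 to 6 when 1 library was left out. Windows called numbered 8. There were 0 with DESeq2 (598 at an unadjusted p under 0.05), 24 with limma, 2 at equal depth, 2 in a fit of 2 groups and 3 without bone marrow. Against single tissues there were 224 for bone marrow, 2 for brain, 0 for heart (1767 unadjusted), 4 for liver and 0 for PBMCs (1584 unadjusted, by edgeR), and 0 to 12 when 1 library was left out. The window of Rn18s-rs5 had the other sign against PBMCs (0.15).

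With the replicate number as a block, long genes (0.955), gene spans (-1.71) and 3′ ends (-0.156) no longer passed (exact permutation p = 0.0556 each). Under the block 2 length classes had p under 0.05 in place of 5, 1 window class in place of 4, and 0 gene lists in place of 1. Start-free windows without a gene and inside long genes lost their calls too (p = 0.0556 each, exact permutation tests). The block gave 9 genes and 12 windows. Whether a number marks an animal is not given in the labels. The correlations over single windows cannot decide it, because windows hold few positions and the shares were not examined in this way.

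At 3′ ends the difference turned to 0.00395 with the distant reference, and at gene starts it was -0.483 and passed without bone marrow. Gene lists with p under 0.05 numbered 4 without bone marrow and 3 without positions near starts. Leaving out 1 library gave 0.865 to 0.985 for long genes, -1.78 to -1.50 for gene spans, -0.730 to -0.556 for starts, -0.165 to -0.134 for 3′ ends and -2.22 to -1.15 for the opposite strand. It gave 0 to 5 length classes, 0 to 4 window classes, 0 to 6 chromosomes and 0 to 4 lists. Without a sperm library the smallest possible p was 0.0909, so no share could pass.

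In the simulated data decreases to 0.5 of the level were often missed, as were 2-fold increases in windows. Changes in genes were made only in those averaging 20 or more positions, where the median over all genes tested was 2.92. Few lower calls thus do not show that few genes were lower.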
